A study of Mus musculus with 137 samples.

Results

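The comparison described here is the change over time of the bleomycin effect in old mouse lungs, from the inflammatory and fibrotic phase at day 14 to the late phase at day 56. For each gene the effect at a day was the difference on the log2 scale between bleomycin and saline lungs of that day, and the interaction was the effect at day 56 minus the effect at day 14. Its members were all 29 old lungs labelled for these treatments and days, out of 77 old and 60 young lungs in the whole series. The 4 groups were bleomycin at day 14 (6 lungs), saline at day 14 (6 lungs), bleomycin at day 56 (6 lungs) and saline at day 56 (11 lungs). All were male mice of strain C57BL/6J aged 21 months. Treated animals received 0.63 mg/kg bleomycin sulphate through the trachea and control animals received NaCl. The series follows resolution of pulmonary fibrosis by bulk RNA sequencing of lung tissue in old and young mice. The 19 young lungs of the same treatments and days, used below for 1 comparison, came from male C57BL/6J mice aged 8 to 12 weeks, and the young treated mice were given a higher dose, 0.7 mg/kg.

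Bleomycin is a drug that breaks DNA, and 1 instillation into the mouse lung injures the alveolar epithelium, draws in monocytes that become macrophages, and is followed by fibroblast activation and collagen deposition. In this model scarring is partial and tends to regress, and the alveolar epithelium is rebuilt from type 2 cells, the surfactant producers, which pass through a transitional, keratin-rich state on the way to flat type 1 cells. A gene whose effect shrinks from day 14 to day 56 is called eased below, one whose effect is still there is called persisted, and one whose effect passes the test at day 56 but not at day 14 is called late, whatever the days between.

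The libraries held 17.8 to 26.4 M counted reads, and each was 1 lung sample. The labels do not say more about how samples of a group were kept apart, so p-values measure the spread between these samples. Surfactant protein C, Sftpc, was at 6953 CPM (counts scaled by library size) or more in each of the 29 libraries, as lung tissue has. Library 86, a day-14 bleomycin lung (replicate 3), had 1.25% of its reads in globin genes, against 0.0014% to 0.061% in the other 28, so each main count is also given without it. Library 89, another day-14 bleomycin lung (replicate 6), had the lowest median correlation with its own group, 0.958, and library 86 the next lowest, 0.974, against 0.981 to 0.99 in the others. The day-56 libraries fall into an earlier and a later run of library numbers, which the labels do not call batches. The earlier run held bleomycin replicates 1 to 3 and saline replicates 1 to 6, and the later run bleomycin replicates 4 to 6 and saline replicates 7 to 11. In bulk tissue, fewer cells of a type and less RNA per cell cannot be told apart.

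Between day 14 and day 56 the bleomycin effect shrank for many genes, grew for none by the rule used, and passed the test at day 56 but not at day 14 for a small set led by immunoglobulin genes. A gene was called when its adjusted p in edgeR's quasi-likelihood test, with Benjamini-Hochberg adjustment over all genes tested, was under 0.05. At day 14, 5383 of 18396 genes tested were higher (29.3%) and 4869 lower (26.5%) in bleomycin than in saline lungs. At day 56, 1432 were higher (7.78%) and 1111 lower (6.04%). The interaction was called for 2000 genes in the higher direction (10.9%) and 2866 in the lower direction (15.6%), lower meaning that the effect was less positive or more negative at day 56. Without library 86, 2722 were called higher (14.8%) and 3341 lower (18.2%), of 18383 tested. Both fits shared 1978 higher and 2801 lower calls. Without that library 22 higher and 64 lower calls were lost, and the interaction of 10 of the latter changed sign. Saline lungs of day 56 and day 14 differed in only 37 genes (0.201%).

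**Figure D1:**
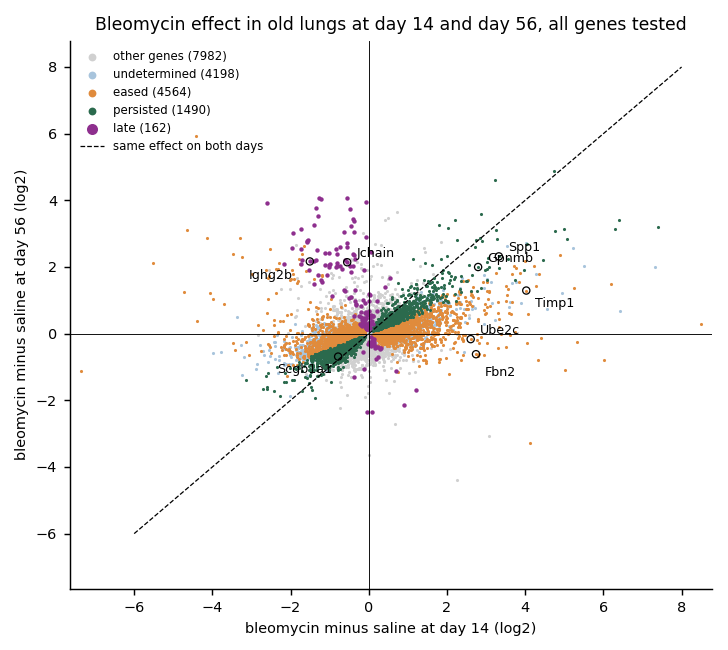
Effect of bleomycin in old lungs at day 14 (x axis, log2) against day 56 (y axis, log2), 1 point per gene tested, coloured by class; the dashed diagonal marks equal effects. Eased genes lie below the diagonal where they were higher at day 14 and above it where they were lower, around the horizontal zero line, with a median of 0.517 at day 14 and 0.0346 at day 56 for those that were higher, persisted genes lie along the diagonal, and late genes lie above or below zero near the vertical zero line.

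Of the 10252 genes called at day 14, 4564 eased (44.5%), which means that the interaction was called against the direction of the day-14 effect. Among these, 4091 no longer passed the test at day 56, 415 still passed it in the same direction, and 58 passed it in the other direction. A further 1490 persisted (14.5%), called at both days in the same direction with no called interaction. For 1161 of them the 95% interval of the interaction lay within 1 log2 unit of zero, and these are called held. That limit is wider than many of the effects: the median day-14 effect of persisted genes was 0.618 for higher and -0.71 for lower ones. The name held therefore does not show that an effect was kept in full. The remaining 4198 (40.9%) were called neither at day 56 nor in the interaction, so their course is undetermined at this replication. No gene grew, that is, had a called interaction in the direction of a called day-14 effect. Late genes, called in the interaction and at day 56 in the same direction but not at day 14, numbered 162, of which 29 were lower at day 56 and the rest higher. Without library 86, 5673 eased (53.8%), 1367 persisted (13%) and 199 were late, and 4458 genes eased and 1307 persisted in both fits. The count of higher calls was 1155 and that of eased genes 2923 without library 89. With day-56 libraries of the earlier run alone the interaction gave 592 higher and 970 lower calls, and with the later run alone 1240 higher and 2080 lower calls. Late genes numbered 63 and 20 in these fits, and genes that persisted were 10.7% and 1.34% of those called at day 14. Leaving out single lungs moved these counts too, to 864 persisted genes without day-56 bleomycin replicate 2 and to 100 late genes without replicate 5. The interaction and the 2 effects share lungs, so these classes sort genes and are not independent tests.

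**Figure D2:**
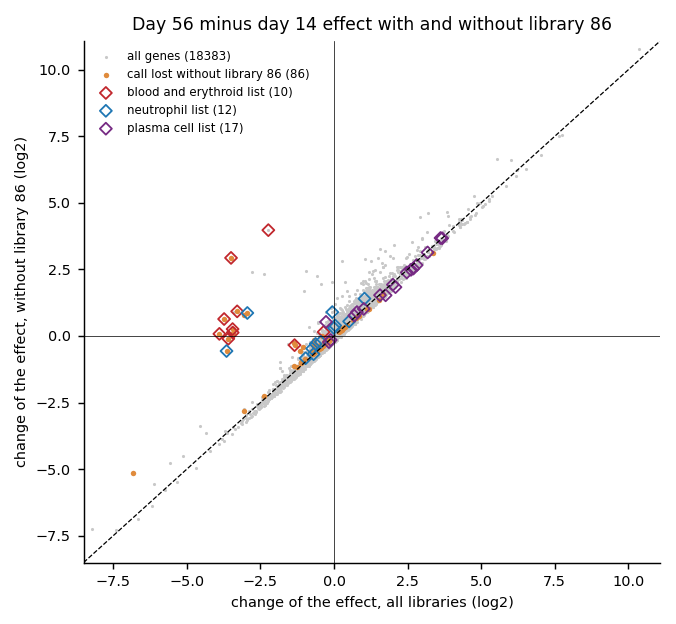
Interaction of each gene tested with all libraries (x axis) and without library 86 (y axis), both log2; the dashed diagonal marks equal values, orange points are calls lost without the library, and diamonds mark 3 lists. Plasma cell genes lie near the diagonal, and erythroid and some neutrophil genes leave it: Hba-a1 moves from -3.44 to 0.26.

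Cell division genes were among those whose bleomycin effect eased to near zero. The proliferation list holds 20 genes of mitosis and DNA replication, and at day 14 19 were higher and none lower, with a median effect of 1.58 on the log2 scale. At day 56 none was higher and 1 was lower, with a median effect of 0.03. The interaction was lower for 16 of 20 and higher for none, with a median of -1.51, against a median of -0.02 over all genes tested. Their promoters are shown because many members carry the cell cycle homology region (CHR, TTTGAA), the element bound by the DREAM complex, which keeps such genes off in resting cells, and by the B-Myb complex, which turns them on before mitosis, and the CCAAT box read by NF-Y. The windows of the 3 members with the smallest interaction p run from 250 bases before to 50 bases after the RefSeq start, on build GRCm38.p6, and capitals mark TTTGAA and CCAAT on either strand. They are Ube2c on the plus strand (chr2:164769679-164769978), Cdc20 on the minus strand (chr4:118437294-118437593) and Aurka on the minus strand (chr2:172370521-172370820).
Ube2c: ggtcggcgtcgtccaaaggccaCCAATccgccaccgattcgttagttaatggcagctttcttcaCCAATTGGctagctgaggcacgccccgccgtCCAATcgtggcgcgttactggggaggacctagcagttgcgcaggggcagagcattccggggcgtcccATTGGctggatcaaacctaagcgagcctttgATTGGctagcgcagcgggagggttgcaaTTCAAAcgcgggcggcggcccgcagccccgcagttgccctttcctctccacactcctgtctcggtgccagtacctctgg
Cdc20: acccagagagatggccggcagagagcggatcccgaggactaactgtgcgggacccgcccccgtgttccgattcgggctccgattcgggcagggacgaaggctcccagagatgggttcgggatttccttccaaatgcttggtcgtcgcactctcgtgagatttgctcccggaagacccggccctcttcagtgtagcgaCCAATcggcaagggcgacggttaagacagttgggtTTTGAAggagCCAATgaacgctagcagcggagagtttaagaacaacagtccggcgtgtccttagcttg
Aurka: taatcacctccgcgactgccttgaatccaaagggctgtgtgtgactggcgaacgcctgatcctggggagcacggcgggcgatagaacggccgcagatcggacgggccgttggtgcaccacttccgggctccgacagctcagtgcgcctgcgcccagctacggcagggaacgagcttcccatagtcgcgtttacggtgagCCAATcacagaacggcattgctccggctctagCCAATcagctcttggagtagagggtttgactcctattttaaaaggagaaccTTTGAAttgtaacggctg

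In the Ube2c and Cdc20 windows the CHR lay 29 and 18 bases before the start, and in the Aurka window 32 bases after it. TTTGAA on either strand was in 9 of the 17 proliferation promoters that had a RefSeq window (52.9%), against 12.7% of the 12878 windows of genes tested. CCAAT was in 14 of the 17 (82.4%), against 37.8%. Both motifs were in 9 (52.9%), against 5.02%. No overlap between the 2 motifs was required or removed, and a match is only a match of letters.

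For Ube2c, the ubiquitin-conjugating enzyme of the anaphase-promoting complex (chromosome 2, 164769898 to 164778822 on GRCm38), the lowest, median and highest values were 0.840, 1.16 and 1.94 CPM in the day-14 saline lungs and 4.97, 6.87 and 14.6 CPM in the day-14 bleomycin lungs, against 1.08, 1.64 and 3.59 CPM in the day-56 saline lungs and 1.06, 1.75 and 2.22 CPM in the day-56 bleomycin lungs. Every day-14 bleomycin lung lay above every lung of the other groups, and the day-56 bleomycin lungs lay within the range of the saline lungs. The effect was 2.61 ± 0.34 (adjusted p = 2.55e-10) at day 14 and -0.17 ± 0.30 (adjusted p = 0.791) at day 56, and the interaction was -2.77 ± 0.45 (adjusted p = 1.82e-05), or -2.49 without library 86, the highest of the day-14 lungs at 14.6 CPM. Cdc20, the activator of the same complex, had an interaction of -1.32 ± 0.22 (adjusted p = 1.92e-05). That of Aurka, a kinase of the mitotic spindle, was -1.92 ± 0.33 (adjusted p = 3.12e-05). The same direction was called for the kinesin Kif20a, at -2.03 ± 0.39 (adjusted p = 0.000154), and for the spindle protein Ckap2, at -2.09 ± 0.33 (adjusted p = 1.03e-05), neither of which is on the list.

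Among the panel members, Cdk1, the main mitotic kinase, moved from an effect of 2.33 ± 0.34 (adjusted p = 1.03e-08) at day 14 to 0.48 ± 0.30 (adjusted p = 0.318) at day 56. Top2a, the topoisomerase that untangles chromosomes, had an interaction of -1.76 ± 0.46 (adjusted p = 0.00353). For the proliferation marker Mki67 it was -1.37 ± 0.51 (adjusted p = 0.0341), and without library 86, which had the highest Mki67 value of the day-14 lungs at 56.9 CPM, it was -1.12 with an adjusted p of 0.082 and was no longer called. The Mki67 call was also lost without any 1 of day-14 saline replicates 1, 2, 4 and 5 or day-56 bleomycin replicates 3 and 4. Without day-56 saline replicate 2 the Mki67 interaction was -1.03 (adjusted p = 0.0997). In neither number run alone was Mki67 called (adjusted p = 0.0683 in the earlier and 0.282 in the later). Top2a was not called in the later run alone, at -1.31 (adjusted p = 0.0784). The day-56 saline lung replicate 2 had 40.1 CPM of Mki67 and 23.7 CPM of Top2a, more than any bleomycin lung of that day. The list count was 14 lower with the earlier run alone and 10 lower with the later run alone.

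The fibrillar matrix eased only in part. At day 14, 23 of the 25 interstitial matrix genes were higher, with a median effect of 1.44. At day 56, 11 were still higher, with a median of 0.39. The interaction was lower for 17 and higher for none, with a median of -1.05, and without library 86 it was lower for 18. Without day-14 bleomycin replicate 5, the lung with the highest matrix levels, 10 were called lower. The earlier run alone gave 2 lower calls with a median of -0.91, and the later run alone 14 with a median of -1.15. Of the 25 genes 17 eased, 1 persisted, 5 were undetermined and 2 were never called.

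For Col1a1, the main chain of type I collagen (chromosome 11, 94936224 to 94953042), the lowest, median and highest values were 347, 372 and 449.9 CPM in the day-14 saline lungs and 548, 1394 and 3806 CPM in the day-14 bleomycin lungs, against 317, 359.7 and 436 CPM in the day-56 saline lungs and 412, 604 and 742 CPM in the day-56 bleomycin lungs. The saline lungs were alike at both days and lay below all day-14 bleomycin lungs, while the bleomycin lungs of the 2 days overlapped: the lowest day-14 lung was library 89 and the highest was replicate 5. The effect fell from 2.14 ± 0.29 (adjusted p = 9.67e-10) to 0.66 ± 0.24 (adjusted p = 0.0478), with an interaction of -1.48 ± 0.37 (adjusted p = 0.00243) and -1.60 without library 86. With the earlier run alone the interaction was -1.33 (adjusted p = 0.0528). Its partners Col1a2 and Col3a1 had interactions of -1.23 ± 0.33 and -1.05 ± 0.29, and Col3a1 kept an effect of 0.97 ± 0.18 (adjusted p = 3.82e-05) at day 56.

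**Figure D3:**
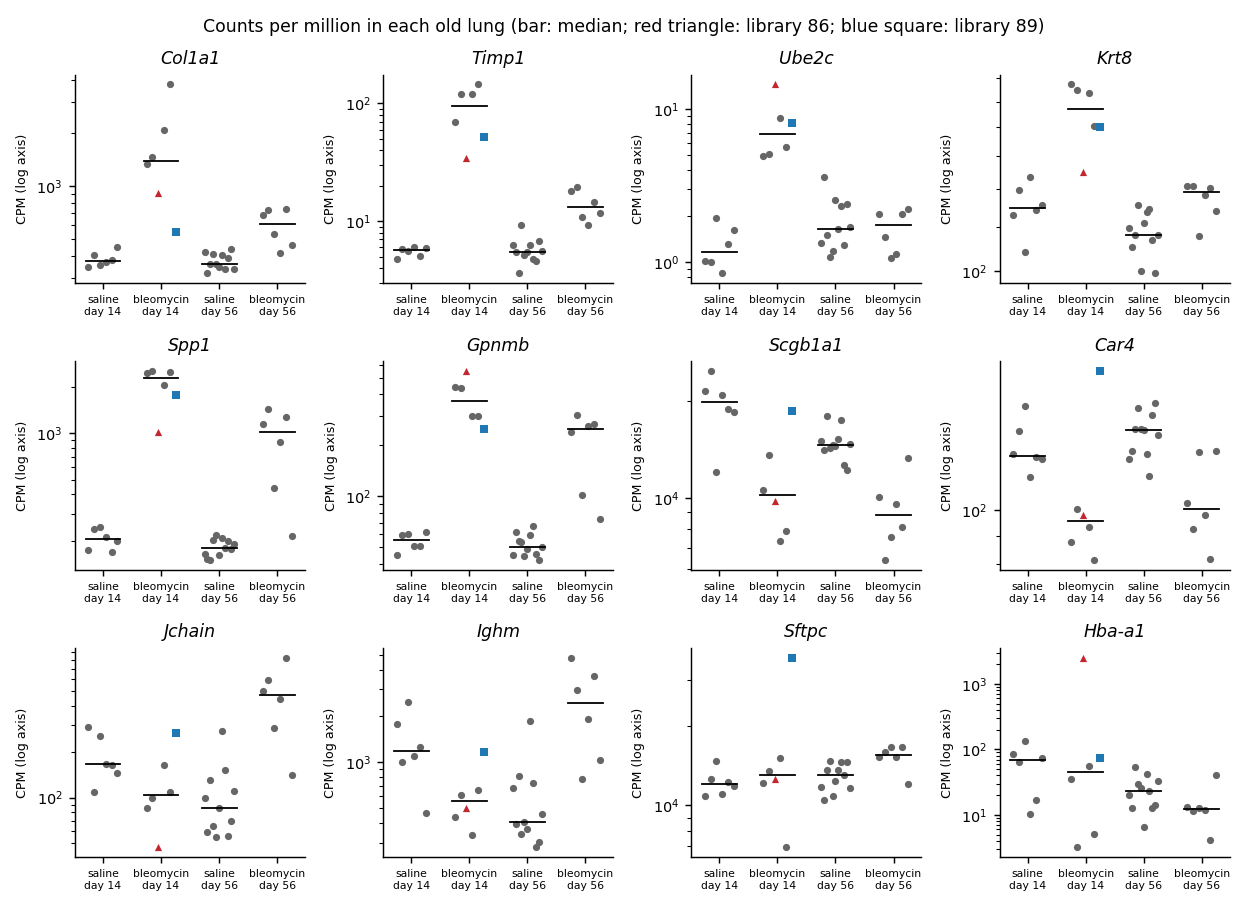
CPM of 12 genes in each old lung (y axis, log scale) by group, saline and bleomycin at day 14 and day 56; the bar is the group median, the red triangle library 86 and the blue square library 89. Timp1 and Ube2c of the day-14 bleomycin lungs lie above those of day 56, the medians of Spp1 and Gpnmb still exceed saline at day 56, those of Jchain and Ighm are highest in day-56 bleomycin lungs, and Hba-a1 is high in library 86 alone.

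Other matrix proteins lay on both sides of the remaining effect. Tenascin C, Tnc, a matrix protein of wounds, had an effect of 3.76 ± 0.41 (adjusted p = 6.74e-13) at day 14 and 1.98 ± 0.32 (adjusted p = 1.74e-06) at day 56, so that it eased but was still higher. Fibronectin, Fn1, did likewise at 2.23 ± 0.32 and 0.89 ± 0.26 (adjusted p = 0.0124), though its interaction of -1.34 ± 0.41 (adjusted p = 0.0104) was -0.92 (adjusted p = 0.0756) without day-14 replicate 5. Elastin, Eln, had 2.34 ± 0.28 at day 14 and 0.48 ± 0.23 (adjusted p = 0.17) at day 56 and no longer passed the test. The collagen-binding glycoprotein Sparc had 1.32 ± 0.14 and 0.26 ± 0.12 (adjusted p = 0.153), with no overlap between the bleomycin lungs of the 2 days.

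Some fibroblast genes had a lower interaction, and the day-56 effects of Cthrc1 and Lox were near zero. Fbn2, the fibrillin of growing tissue, had an interaction of -3.36 ± 0.70 (adjusted p = 0.000374), the most negative among genes called with and without library 86 whose bleomycin lungs of the 2 days did not overlap. Its day-56 bleomycin lungs, at 0.286, 0.392 and 0.513 CPM for the lowest, median and highest, lay below all day-14 bleomycin lungs at 1.25, 2.92 and 11.4 CPM. Cthrc1, a marker of the collagen-producing fibroblasts of fibrosis, had an effect of 1.17 ± 0.26 (adjusted p = 9.19e-05) at day 14 and -0.01 ± 0.24 (adjusted p = 0.993) at day 56. Its interaction was called with all libraries, but was -0.80 (adjusted p = 0.0721) without day-14 bleomycin replicate 5. With the earlier run alone it was -1.04 (adjusted p = 0.107), and with the later run alone -1.31 (adjusted p = 0.0324). Lox, which cross-links collagen and elastin, had 1.67 ± 0.26 and -0.01 ± 0.22 (adjusted p = 0.988). The hyaluronan synthase Has2 had an interaction of -2.25 ± 0.62 (adjusted p = 0.00509), which was not called with the earlier run alone (adjusted p = 0.0547).

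Others remained raised. The BMP antagonist Grem1 had an effect of 4.90 ± 0.63 (adjusted p = 2.17e-10) at day 14 and 2.35 ± 0.53 (adjusted p = 0.000713) at day 56, with saline medians of 0.934 and 0.721 CPM against bleomycin medians of 20.7 and 3.48 CPM. Thrombospondin 4, Thbs4, had 4.28 ± 0.54 at day 14 and 1.42 ± 0.48 (adjusted p = 0.0327) at day 56. It was picked among genes whose bleomycin lungs of the 2 days did not overlap. The Wnt antagonist Sfrp1 had 2.60 ± 0.28 and 1.17 ± 0.23 (adjusted p = 0.000114). Of the 17 genes of the fibrotic fibroblast list, 12 were higher at day 14, 8 at day 56, and 7 had a lower interaction with a median of -0.56, against 2 with a median of -0.36 in the earlier run alone and 5 with a median of -0.76 in the later run alone. Acta2, the smooth muscle actin of myofibroblasts and vessels, was not called at either day, at 0.03 ± 0.17 (adjusted p = 0.893) and -0.18 ± 0.15 (adjusted p = 0.495), nor was periostin, Postn, at 0.06 ± 0.09 (adjusted p = 0.636) and 0.07 ± 0.08 (adjusted p = 0.636).

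Enzymes that shape the matrix followed the same course. Of the 21 matrix proteases and inhibitors, 18 were higher and 1 lower at day 14, 11 higher and 1 lower at day 56, and 11 had a lower interaction. The metalloprotease inhibitor Timp1 (chromosome X, 20870166 to 20874735) was the clearest case, and the lowest, median and highest values were 4.74, 5.68 and 6.02 CPM in the day-14 saline lungs and 34.5, 94.4 and 146.3 CPM in the day-14 bleomycin lungs, against 3.60, 5.48 and 9.19 CPM in the day-56 saline lungs and 9.32, 13.1 and 19.4 CPM in the day-56 bleomycin lungs. All bleomycin lungs of day 56 lay below all of day 14, and above all saline lungs of either day. Its effect went from 4.03 ± 0.42 (adjusted p = 8.22e-14) to 1.29 ± 0.34 (adjusted p = 0.00437), with an interaction of -2.73 ± 0.53 (adjusted p = 0.00016) and -2.90 without library 86. The urokinase Plau, which activates plasmin, had 0.96 ± 0.12 at day 14 and 0.10 ± 0.11 (adjusted p = 0.598) at day 56, and the macrophage elastase Mmp12 had 3.72 ± 0.44 and 2.03 ± 0.34 (adjusted p = 5.32e-06).

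The earlier run alone gave 5 lower calls on this list and the later run alone 10. Of the 20 genes of collagen processing and cross-linking, 16 were higher at day 14 and 11 had a lower interaction, again 5 and 10 in the separate runs. The lysyl oxidase relative Loxl2 had an interaction of -1.17 ± 0.31 (adjusted p = 0.00351) and the prolyl hydroxylation cofactor Crtap -0.47 ± 0.12 (adjusted p = 0.00339). Among 17 TGF-beta ligands and targets, 15 were higher at day 14, 7 at day 56, and 6 had a lower interaction, against 2 in the earlier and 4 in the later run alone. The matricellular target Ccn2 had an effect of 0.73 ± 0.20 (adjusted p = 0.000976) at day 14 and -0.36 ± 0.17 (adjusted p = 0.174) at day 56. In the basement membrane list 4 of 20 had a lower interaction, near the 15.6% of all genes tested, so this list did not stand out. The count was 2 without any 1 of 4 bleomycin lungs (day-14 replicates 4 and 5, day-56 replicates 4 and 6), 0 in the earlier run alone and 1 in the later.

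Transitional epithelial genes eased in most cases. Of the 17 genes of the transitional alveolar epithelium list, 15 were higher at day 14 with a median effect of 0.88, 6 at day 56 with a median of 0.24, and 13 had a lower interaction, also without library 86. With the earlier run alone 2 were called lower, at a median of -0.60, and with the later run alone 10, at a median of -0.67. For the tight junction protein Cldn4, the lowest, median and highest values were 2.77, 7.62 and 8.00 CPM in the day-14 saline lungs and 20.3, 32.4 and 56 CPM in the day-14 bleomycin lungs, against 2.35, 6.06 and 8.85 CPM in the day-56 saline lungs and 6.67, 8.16 and 10.2 CPM in the day-56 bleomycin lungs. The day-56 bleomycin lungs overlapped the saline lungs and lay below all day-14 bleomycin lungs. Its interaction was -1.89 ± 0.51 (adjusted p = 0.00418). Sfn, the cell cycle inhibitor known as stratifin, had an effect of 1.52 ± 0.19 (adjusted p = 9.59e-11) at day 14 and 0.03 ± 0.17 (adjusted p = 0.952) at day 56. The growth factor Hbegf had 0.88 ± 0.12 and 0.03 ± 0.11 (adjusted p = 0.921).

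The cornified envelope gene Sprr1a was among the list members still higher at day 56, with 4.24 ± 0.43 (adjusted p = 3.54e-14) at day 14 and 2.02 ± 0.34 (adjusted p = 5.67e-06) at day 56. Keratin 8, Krt8, the usual marker of the transitional state, had an effect of 0.55 ± 0.13 (adjusted p = 0.000116) at day 14 and 0.20 ± 0.11 (adjusted p = 0.244) at day 56. Its interaction of -0.35 ± 0.17 (adjusted p = 0.105) did not pass the test, and the bleomycin lungs of the 2 days, at 150.1, 194 and 215 CPM and 115.8, 138.5 and 141.7 CPM, did not overlap. Of 15 senescence genes, 12 were higher at day 14, 2 at day 56, and 9 had a lower interaction and 1 a higher one, with 3 and 6 lower in the earlier and the later run. The cell cycle inhibitor Cdkn1a had 0.66 ± 0.13 (adjusted p = 1.45e-05) at day 14 and an interaction of -0.48 ± 0.18 (adjusted p = 0.0341), which kept its call in 16 of the 29 fits that left out 1 library. Cdkn2a, the inhibitor that marks senescent cells, had 1.48 ± 0.30 (adjusted p = 1.89e-05) at day 14, 0.66 ± 0.26 (adjusted p = 0.0804) at day 56 and no called interaction (-0.81 ± 0.40 (adjusted p = 0.12)). The death receptor Fas went from 0.38 ± 0.09 (adjusted p = 0.000268) to -0.25 ± 0.08 (adjusted p = 0.0272) and so ended below saline.

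Alveolar type 2 genes ended above saline. Of 13 such genes, 3 were higher and 3 lower at day 14, and 9 were higher and none lower at day 56, with a median effect of 0.31. The interaction was higher for 4, and without library 86 for 4 with 1 lower. For the phosphate transporter Slc34a2 (chromosome 5, 53038081 to 53071664), the lowest, median and highest values were 1986, 2269 and 2339 CPM in the day-14 saline lungs and 1257, 1848 and 2035 CPM in the day-14 bleomycin lungs, against 1969.9, 2304 and 2718 CPM in the day-56 saline lungs and 2295, 2902 and 3217 CPM in the day-56 bleomycin lungs. The bleomycin lungs of day 56 lay above all bleomycin lungs of day 14 and overlapped the saline lungs. The effect changed from -0.31 ± 0.10 (adjusted p = 0.00561) to 0.31 ± 0.09 (adjusted p = 0.0083), with an interaction of 0.61 ± 0.13 (adjusted p = 0.000448). The lamellar body lipid transporter Abca3 had an interaction of 0.53 ± 0.11 (adjusted p = 0.000464), and Etv5, a transcription factor that maintains type 2 cells, of 0.65 ± 0.14 (adjusted p = 0.000775). Sftpc itself was not called at either day (0.40 ± 0.18 (adjusted p = 0.052) and 0.25 ± 0.16 (adjusted p = 0.321)), and its day-14 bleomycin values ran from 6953 CPM in replicate 5 to 36335 CPM in library 89.

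Lipid synthesis genes changed in both directions. Fasn, the fatty acid synthase, was late, with -0.21 ± 0.12 (adjusted p = 0.124) at day 14 and 0.49 ± 0.10 (adjusted p = 0.000213) at day 56. Srebf2, which drives cholesterol synthesis genes, had an interaction of 0.42 ± 0.10 (adjusted p = 0.00102). In the whole lipid synthesis list 5 of 20 were higher and 1 lower in the interaction, against 10.9% and 15.6% of all genes tested. The lower one was Elovl6, at -1.05 (adjusted p = 0.00673) with the earlier run alone. The later run alone gave 6 higher and 0 lower calls on this list. Among 13 alveolar type 1 genes the interaction was higher for 1 and lower for 2, near the 10.9% and 15.6% of all genes tested. The list as a whole therefore did not stand out, and its higher count ran from 0 to 3 over the fits that left out 1 library. The called members were Rtkn2 at 0.53 ± 0.19 (adjusted p = 0.0268), the surface protein Pdpn at -0.66 ± 0.20 (adjusted p = 0.00911), and Igfbp2 at -1.45 ± 0.31 (adjusted p = 0.000444).

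Macrophage genes of monocyte origin were still high at day 56. Of the 20 genes of that list, 19 were higher at day 14 with a median effect of 1.77, and 17 at day 56 with a median of 0.98. The interaction was lower for 11, with a median of -0.79, and without library 86 for 13. The earlier run alone gave 6 lower calls and the later run alone 10, with medians of -0.70 and -0.90. For Spp1, osteopontin (chromosome 5, 104435118 to 104441050), the lowest, median and highest values were 169, 206 and 246 CPM in the day-14 saline lungs and 1013, 2278 and 2551 CPM in the day-14 bleomycin lungs, against 149.04, 180.3 and 217 CPM in the day-56 saline lungs and 213, 1018 and 1450.5 CPM in the day-56 bleomycin lungs. All bleomycin lungs of day 14 and all but replicate 6 of day 56 lay above every saline lung. Among the 6 day-56 bleomycin lungs, replicates 3 and 6 were lowest, at 443 and 213 CPM. The effect was 3.33 ± 0.35 (adjusted p = 1.15e-13) and then 2.32 ± 0.27 (adjusted p = 2.94e-10). Its interaction of -1.01 ± 0.43 (adjusted p = 0.0671) was not called, and without library 86, which had the lowest day-14 value, it was -1.14 (adjusted p = 0.0341) and was called.

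The lysosomal glycoprotein Gpnmb (chromosome 6, 49036546 to 49070929) had the same pattern among lungs, with 102.6 and 73.4 CPM in day-56 replicates 3 and 6 and a median of 251 CPM, against saline values of 42 to 66.4 CPM. It persisted, with effects of 2.80 ± 0.28 (adjusted p = 2.89e-14) and 2.0 ± 0.23 (adjusted p = 7.85e-11) and an interaction of -0.80 ± 0.36 (adjusted p = 0.0837). The protease Ctsk persisted as well, at 1.72 ± 0.27 and 1.32 ± 0.22 (adjusted p = 4.6e-06). Trem2, the lipid receptor of these cells, eased while still higher, with 3.25 ± 0.24 (adjusted p = 5.86e-21) and 1.83 ± 0.19 (adjusted p = 2.57e-12) and an interaction of -1.41 ± 0.31 (adjusted p = 0.000538). Its day-56 bleomycin lungs, at 17.2, 37.5 and 44.4 CPM, lay below those of day 14, at 59.6, 75.3 and 86.6 CPM, and above all saline lungs. Apoe, the lipid carrier, went from 1.82 ± 0.14 to 0.63 ± 0.12 (adjusted p = 3.97e-05).

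Complement and chemokine genes eased in part. Of 14 complement genes 12 were higher at day 14, 8 at day 56, and 6 had a lower interaction. The classical pathway chain C1qb had 2.67 ± 0.22 (adjusted p = 2.93e-19) at day 14, 1.09 ± 0.18 (adjusted p = 1.97e-06) at day 56 and an interaction of -1.59 ± 0.28 (adjusted p = 4.03e-05), and C1qa and C1qc had -1.59 ± 0.27 and -1.49 ± 0.26. These C1q genes are also on the monocyte-derived macrophage list. Of 23 chemokine genes 15 were higher at day 14 and 8 at day 56. The interaction was lower for 8 and higher for 1, with 5 and 8 lower in the separate number runs. Monocyte attractants were among the lower ones: Ccl2 had an interaction of -1.65 ± 0.43 (adjusted p = 0.00325) and Ccl12 of -1.79 ± 0.38 (adjusted p = 0.000379). The interferon target Rsad2 had -1.37 ± 0.42 (adjusted p = 0.0118), and without library 86 -0.28 (adjusted p = 0.578).

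Lysosome genes eased but stayed high. Of the 15 genes on that list 14 were higher at day 14 with a median effect of 0.98, and 14 were higher at day 56 with a median of 0.41. Even so 11 had a lower interaction, and without library 86 also 11, with 1 higher. Hexa, a subunit of a lysosomal enzyme, went from 1.05 ± 0.10 to 0.41 ± 0.09 (adjusted p = 0.000326). The earlier run alone gave 5 lower calls and the later run alone 8.

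**Figure D4:**
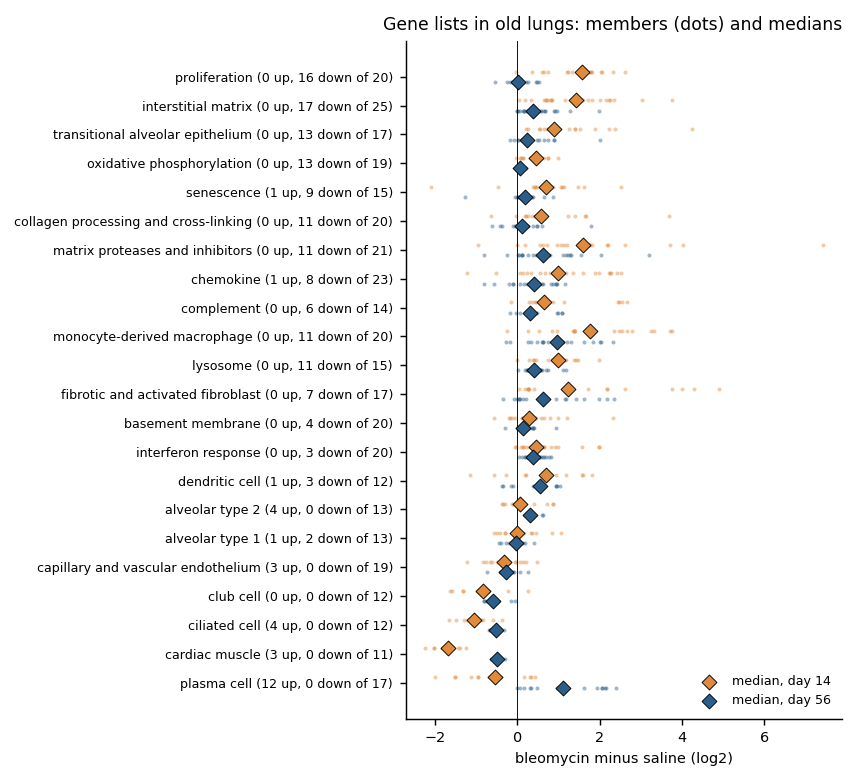
Median bleomycin effect (x axis, log2) of each gene list in old lungs at day 14 and day 56, as diamonds, with each member as a dot; the numbers beside each name are members called up or down in the interaction. Proliferation moves from 1.58 to 0.03, matrix from 1.44 to 0.39, monocyte-derived macrophage from 1.77 to 0.98, club cell stays at -0.84 and -0.59, and plasma cell moves from -0.53 to 1.11.

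Some effects did not shrink measurably. Among the 10 held genes with the largest effects at both days was 1, the cystatin Cst8, that was lower in bleomycin lungs, and the rest were higher. For the metalloprotease Mmp19 (chromosome 10, 128790910 to 128800824), the lowest, median and highest values were 26.9, 34.3 and 37.9 CPM in the day-14 saline lungs and 76.9, 115.1 and 141.9 CPM in the day-14 bleomycin lungs, against 27.8, 30.5 and 35.6 CPM in the day-56 saline lungs and 52.8, 93.9 and 136.3 CPM in the day-56 bleomycin lungs. Every bleomycin lung lay above every saline lung, and the bleomycin lungs of the 2 days overlapped. The effects were 1.74 ± 0.22 (adjusted p = 1.81e-10) and 1.54 ± 0.19 (adjusted p = 7.32e-10), and the interaction was -0.20 with a 95% interval from -0.78 to 0.37. For Nos2, the inducible nitric oxide synthase, the effects were 1.49 ± 0.25 (adjusted p = 4.08e-07) and 1.44 ± 0.21 (adjusted p = 1.49e-07), with an interval of the interaction from -0.70 to 0.60. Lrg1, a glycoprotein of inflamed vessels, had 1.69 ± 0.24 and 1.35 ± 0.20 (adjusted p = 3.08e-07). Veph1 had 1.91 ± 0.28 and 1.92 ± 0.24 (adjusted p = 1.11e-09), the DNA repair helicase Zranb3 1.87 ± 0.19 and 1.68 ± 0.16 (adjusted p = 5.38e-14), and Cst8 -1.52 ± 0.34 and -1.49 ± 0.31 (adjusted p = 0.000227). These genes were picked for their effects at the 2 days, so the effects describe them.

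Club cell genes stayed low in most cases, and ciliated and vessel genes in part. Of 12 club cell genes 10 were lower at day 14 with a median effect of -0.84, and 7 at day 56 with a median of -0.59. None had a called interaction in edgeR's test, and the fits that left out 1 library gave 0 to 2 higher calls. From day 14 to day 56 the median list level went from 8.57 to 8.07 log2 CPM in saline lungs. In bleomycin lungs it went from 7.63 to 7.52. For Scgb1a1, the secretory protein that defines club cells (chromosome 19, 9083636 to 9087958), the lowest, median and highest values were 12060.0, 19851 and 24809 CPM in the day-14 saline lungs and 7327, 10169 and 18662 CPM in the day-14 bleomycin lungs, against 12200.0, 14592 and 17922 CPM in the day-56 saline lungs and 6394, 8852 and 13289 CPM in the day-56 bleomycin lungs. Most bleomycin lungs were lower than the saline lungs, with some overlap on both days, and the highest day-14 bleomycin value was that of library 89. Its effects were -0.78 ± 0.21 (adjusted p = 0.000765) and -0.69 ± 0.18 (adjusted p = 0.0057). The 95% interval of the interaction ran from -0.45 to 0.64, so Scgb1a1 was held by the limit of 1 log2 unit. That limit is wider than the effect itself, so loss of a large part of the effect is not excluded. Cyp2f2, the club cell cytochrome, had -1.32 ± 0.24 (adjusted p = 2.48e-06) and -0.58 ± 0.21 (adjusted p = 0.0528), with an interaction of 0.74 ± 0.32 (adjusted p = 0.0704).

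Of 12 ciliated cell genes 11 were lower at day 14 with a median of -1.04 and 5 at day 56 with a median of -0.52. The saline lungs themselves had a median change of -0.38 from day 14 to day 56 over this list, with none called. The interaction was higher for 4, among them the dynein chains Dnah11, at 0.81 ± 0.26 (adjusted p = 0.0132), and Dnah5, at 0.94 ± 0.36 (adjusted p = 0.0387). That count rested on single lungs: it ran from 1 to 6 over the fits that left out 1 library, and was 1 or 2 without any 1 of day-14 saline replicates 1, 2 and 4, day-14 bleomycin replicates 4 and 6, and day-56 bleomycin replicates 4, 5 and 6. It was 0 in the earlier run alone and 3 in the later. Foxj1, the master regulator of cilia, had -0.82 ± 0.21 (adjusted p = 0.000509) and -0.50 ± 0.19 (adjusted p = 0.0591). Of 12 goblet and airway defence genes 7 were lower and 1 higher at day 14, and 1 was higher at day 56. Cardiac muscle markers moved with these airway lists: all 11 were lower at day 14, none was called at day 56, and the median interaction was 1.15. Their mean level ran from 3.32 to 5.22 on the log2 CPM scale in the day-14 saline lungs and from 2.81 to 3.74 in the day-14 bleomycin lungs, and at day 56 from 1.87 to 5.54 and from 2.09 to 4.81. Saline library 80 was the lowest of its group in the ciliated, goblet, cardiac and club cell lists together. Without it 6 ciliated and 2 club cell genes had a higher interaction. The part of proximal tissue in the airway results was not tested.

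Of 19 capillary and vascular endothelium genes 12 were lower and 1 higher at day 14, and 8 lower at day 56. The VEGF receptor Kdr had medians of 538 and 301 CPM in day-14 saline and bleomycin lungs and of 524 and 413 CPM in those of day 56. Its effect was -0.83 ± 0.13 (adjusted p = 1.25e-07) and then -0.33 ± 0.12 (adjusted p = 0.0481), and the interaction 0.51 ± 0.18 (adjusted p = 0.0254). Car4, the carbonic anhydrase of a specialised alveolar capillary cell, was held at -0.29 ± 0.12 (adjusted p = 0.0368) and -0.38 ± 0.11 (adjusted p = 0.0106), effects smaller than the limit used for held. The endothelin receptor Ednrb, of the same cells, persisted at -1.22 ± 0.22 and -0.73 ± 0.20 (adjusted p = 0.00539). The list's 3 higher interactions, against 10.9% of all genes tested, became 6 without library 86 and 0 without library 89.

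Antibody-secreting cell genes were higher at day 56 and not at day 14 in most cases. Of 17 plasma cell genes 1 was higher and 4 lower at day 14, with a median effect of -0.53, and 11 were higher at day 56, with a median of 1.11. The interaction was higher for 12 and lower for none, with a median of 2.0, and without library 86 also for 12, with a median of 1.83. Both number runs alone gave the same direction, with 10 higher calls in the earlier run and 9 in the later run. The saline lungs moved the other way from day 14 to day 56, with a median of -0.57 over the list and none of the 17 called. The mean level of the list ran from 4.48 to 5.34 on the log2 CPM scale in the day-14 bleomycin lungs and from 4.87 to 6.16 in the day-14 saline lungs. At day 56 it ran from 5.34 to 6.56 in the bleomycin lungs and from 4.30 to 5.77 in the saline lungs.

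For Ighm, the heavy chain of IgM (chromosome 12, 113418558 to 113422730), the lowest, median and highest values were 468, 1177 and 2484 CPM in the day-14 saline lungs and 336, 557 and 1168 CPM in the day-14 bleomycin lungs, against 280.2, 407 and 1869 CPM in the day-56 saline lungs and 778, 2434 and 4792 CPM in the day-56 bleomycin lungs. The bleomycin lungs of day 56 were highest as a group, with replicates 3 and 6 the lowest among them, at 778 and 1029 CPM and within the saline range. The effect was -1.12 ± 0.57 (adjusted p = 0.085) at day 14 and 2.05 ± 0.48 (adjusted p = 0.0012) at day 56, and the interaction was 3.18 ± 0.76 (adjusted p = 0.0014) and 3.13 without library 86. For Jchain, which joins secreted IgM and IgA (chromosome 5, 88519809 to 88527891), the lowest, median and highest values were 108.5, 165 and 292 CPM in the day-14 saline lungs and 47.4, 104.2 and 266 CPM in the day-14 bleomycin lungs, against 55, 85.6 and 275 CPM in the day-56 saline lungs and 140.3, 472 and 829 CPM in the day-56 bleomycin lungs. The same 2 day-56 lungs were lowest, at 286 and 140.3 CPM. The interaction was 2.69 ± 0.68 (adjusted p = 0.00231).

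The light chain gene Igkc had an interaction of 2.61 ± 0.66 (adjusted p = 0.00247), and Mzb1, an antibody-folding factor of plasma cells, of 1.56 ± 0.52 (adjusted p = 0.0195). The lambda constant gene Iglc2, picked among genes whose bleomycin lungs of the 2 days did not overlap, was lower at day 14, at -1.51 ± 0.39 (adjusted p = 0.000614), and higher at day 56, at 0.96 ± 0.33 (adjusted p = 0.0364). The secretory pathway gene Derl3 did likewise, at -0.96 ± 0.35 (adjusted p = 0.016) and 1.04 ± 0.29 (adjusted p = 0.0083). Ighg1 was not called at either day, with 5.21, 16.7 and 39.2 CPM in the day-56 bleomycin lungs and 0.843, 10.7 and 58.7 CPM in the saline lungs. None of the 12 B cell genes was called at either day or in the interaction, Cd79a, a part of the B cell receptor, being at 0.05 ± 0.49 (adjusted p = 0.951).

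Immunoglobulin genes made up 58 of the late genes that were higher (43.6%), against 202 of all genes tested (1.1%). Of the 198 that are not pseudogenes, the interaction was higher for most and lower for none, with a median of 2.75. For the 177 variable segments it was higher for 93, with a median effect of -0.88 at day 14 and 1.75 at day 56. Segments are near-identical, and reads may have been split between them, so single segments are not named. Another 69 were other protein-coding genes (51.9%). They included Proz, a vitamin K-dependent plasma protein, at 0.90 ± 0.21 (adjusted p = 0.00107), Slc26a10 at 1.19 ± 0.25 (adjusted p = 0.000338), and Hdc, the histamine-producing enzyme, at 0.41 ± 0.13 (adjusted p = 0.0177). The interaction of Proz was called in every alternative fit. That of Slc26a10 was not called in the later run alone or without day-56 bleomycin replicate 2, and that of Hdc was called in 22 of the 29 fits that left out 1 library and in neither run alone, nor without the filter. Marco, a scavenger receptor of alveolar macrophages, was late in the lower direction: its day-56 bleomycin lungs, at 9.06, 12.7 and 15.1 CPM, lay below those of day 14, at 16, 45.8 and 70.3 CPM, and the effect was -1.12 ± 0.36 (adjusted p = 0.0235). With the earlier run alone its interaction was -1.85 and was not called (adjusted p = 0.0556). Marco does not stand for its list: of 14 alveolar macrophage genes 1 had a higher and 1 a lower interaction, with a median of 0.24. Over all genes tested 10.9% were called higher and 15.6% lower. The Wnt ligand Wnt4 was also late and lower, at -0.43 ± 0.10 (adjusted p = 0.000662).

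Among genes that were low at day 14 and then recovered, the calcium channel gene Cacna1h passed saline, with -1.30 ± 0.31 (adjusted p = 0.000197) at day 14 and 0.78 ± 0.26 (adjusted p = 0.0298) at day 56. Arhgef38 and Phf24 came back near saline level, with effects of -1.41 ± 0.15 and -1.51 ± 0.16 at day 14 and -0.15 ± 0.13 and -0.27 ± 0.13 at day 56, neither called at the later day. The clock repressor Nr1d1 had an interaction of 1.13 ± 0.32 (adjusted p = 0.00647). In the circadian clock list 5 of 14 were higher in the interaction, while the saline lungs had a median change of -0.27 from day 14 to day 56, and the hour of tissue collection is not given in the sources used here. That count was 3 without any 1 of 13 of the 29 lungs (day-14 saline replicate 4, day-14 bleomycin replicates 2, 4 and 6, day-56 saline replicates 1, 2, 4, 5, 7 and 8, and day-56 bleomycin replicates 4, 5 and 6).

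Oxidative phosphorylation genes had a small effect at day 14 and none that passed the test at day 56. Of 19 nuclear-encoded members 15 were higher at day 14 with a median of 0.46, none was called at day 56, and 13 had a lower interaction with a median of -0.42. The mean level of the list in library 89 was 7.02 on the log2 CPM scale, against 6.16 to 6.54 in the other day-14 bleomycin lungs, and without that library 4 had a lower interaction. Cox5a, a subunit of cytochrome oxidase, had -0.77 ± 0.18 (adjusted p = 0.0014). Of the 6 mitochondrion-encoded genes 5 were lower at day 14, and 1, mt-Nd5, had a higher interaction, at 0.54 ± 0.17 (adjusted p = 0.0172).

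Markers of tissue beside the alveoli changed with a few lungs. Of 10 blood and erythroid genes 8 had a lower interaction with all libraries, with a median of -3.44, and without library 86 none was lower and 1 was higher, with a median of 0.20. Hba-a1, a haemoglobin chain, was at 2506 CPM in library 86 and between 3.23 and 72.9 CPM in the other day-14 bleomycin lungs. Of 12 neutrophil genes the 2 lower ones, the granule genes Camp and Ngp, went from -3.65 and -2.94 to -0.56 and 0.86 without that library and lost their calls. All 11 cardiac muscle genes, which in lung come from the sleeves of the pulmonary veins or attached heart tissue, were lower at day 14, and 3 had a higher interaction. This count was 1 without any 1 of 10 lungs (day-14 saline replicates 1, 2 and 5, day-14 bleomycin replicates 2, 4 and 6, day-56 saline replicate 9, and day-56 bleomycin replicates 4, 5 and 6). Of 9 skeletal muscle genes 6 were higher at day 14 and 4 had a lower interaction, among them Myh1 at -5.12 ± 1.06 (adjusted p = 0.000351). Their mean level was 2.41 and 2.24 on the log2 CPM scale in libraries 86 and 88 and -0.93 to -0.58 in the other 4 day-14 bleomycin lungs, against -1.01 to -0.27 in the saline lungs of that day. With limma and voom 1 was called, at a median of -0.37 against -1.82, and Myh1 was at -1.53 (adjusted p = 0.335). The part of these tissues in other results was not tested.

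List medians on the days between did not all change steadily. Proliferation genes had a median effect of 1.52 on day 21, and of 0.83, 0.92 and -0.71 on days 28, 35 and 42. The medians of matrix genes were 1.84 and 1.76 on days 21 and 28, then 1.01 and 0.72. Genes of monocyte-derived macrophages stayed at 1.77, 1.72 and 1.82 at days 21, 28 and 35 and had a median of 1.19 at day 42. Plasma cell genes were already positive at day 21, at 0.46, and at 0.96, 1.11 and 0.57 at days 28, 35 and 42. Club cell genes had their lowest median at day 21, at -1.42. These medians come from other lungs than those of days 14 and 56 and are given as a description.

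**Figure D5:**
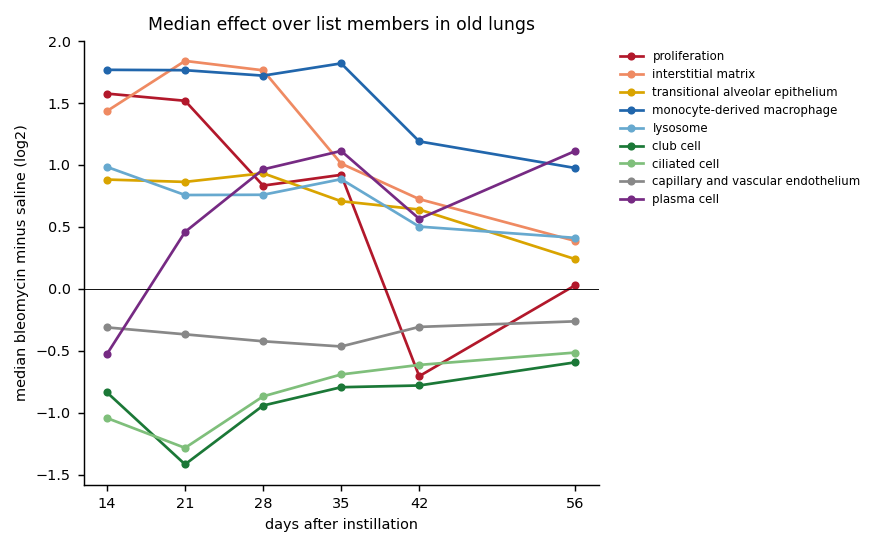
Median bleomycin effect (y axis, log2) of gene lists in old lungs on days 14, 21, 28, 35, 42 and 56 (x axis); each day has its own saline lungs. Proliferation is at 0.03 and monocyte-derived macrophage at 0.98 on day 56, and plasma cell crosses from -0.53 on day 14 to 0.46 on day 21.

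In young lungs, which had 5 bleomycin and 5 saline lungs at day 14 and 4 and 5 at day 56, the same interaction was called higher for 251 genes (1.36%) and lower for 579 (3.15%). The difference between the old and the young interaction was called for 0 genes (0%) by edgeR, with 1473 at an unadjusted p under 0.05. DESeq2 called 3 and limma with voom 9. The larger number of calls in old lungs is therefore not shown to be a difference between ages, and dose and age differed together. Young lungs had 11 of 20 proliferation genes lower in the interaction with a median of -1.77, 14 of 25 matrix genes with a median of -1.31, and 6 of 20 monocyte-derived macrophage genes with a median of -0.78. At day 56, 16 of these 20 macrophage genes and 14 of 15 lysosome genes were higher in young lungs. Of the 17 plasma cell genes 2 had a higher interaction in young lungs, with a median of 1.78, and 10 were higher at day 56. For Jchain the young interaction was 2.01 ± 0.85 (adjusted p = 0.161), and the old minus young difference was 0.68 ± 1.08 (adjusted p = 0.867). For Timp1 they were -2.74 ± 0.64 (adjusted p = 0.00487) and 0.00 ± 0.75 (adjusted p = 1), and for Col1a1 -2.02 ± 0.45 (adjusted p = 0.00307) and 0.54 ± 0.58 (adjusted p = 0.787).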

How the data were processed

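RNA of 77 old and 60 young lung samples in 26 groups was sequenced, and the authors deposited 1 table of raw read counts per gene for these samples. Per the submitters' processing notes, the tools named were bcl2fastq 2.20.0.422, STAR 2.5.2 and 2.5.2b, featureCounts 1.5.1, RSEM 1.3.0 and FastQC 0.11.5, and the builds hg38, GRCh38 and GRCm38, with no roles. How strand, annotation release and multi-mapping reads were treated is not given in the sources used here, so paralogs and overlapping or antisense genes can share reads. Gene names, coordinates and gene kinds came from GENCODE M21 on GRCm38 by identifier, for 18348 of 18396 genes tested, and promoter windows from RefSeq on GRCm38.p6.

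Genes with low counts were left out (filterByExpr in edgeR, minimum count 10 and minimum total 15), which left 18396 of 48794. All libraries entered 1 fit with a mean per group (edgeR 4.0.16 in R 4.3.3, TMM scaling, robust quasi-likelihood, 111 residual degrees of freedom), and p-values were adjusted by the Benjamini-Hochberg method over all genes tested. Effects and interactions are log2 values ± standard error. CPM values use TMM-scaled library sizes, and mean list levels are log2 CPM with a prior count of 2. The biological coefficient of variation was 16%, and no 2 libraries of a group agreed within counting noise. The script was tested on simulated counts with the same spread for all genes and no outlying lungs. The pass mark of that test was lowered after its first result was seen. Genes named are a panel of markers, the 10 most negative and 10 most positive interactions among called genes above a mean log2 CPM of 1 with no overlap between the bleomycin lungs of the 2 days, the 10 largest held and the 10 largest late genes, and up to 3 members with the smallest interaction p of each of 48 lists. A few genes that this rule names are not reported here. Members and lists were chosen with earlier results of these data known. Some genes are on more than 1 list, so the lists are not independent of each other. Alternatives were DESeq2 1.42.0, limma 3.58.1 with voom, RLE scaling, no filter, the 4 groups alone, each run of day-56 library numbers alone, each of the 29 libraries left out in turn, and, chosen after seeing the data, libraries 86 and 89 left out together.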

Additional observations from a re-analysis of the deposited data

Results flagged for a closer look

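In each group of 6 lungs the highest or lowest lung was tested against the others (Dixon's test) for the panel genes and the list means, 273 tests in all, and 31 values stood apart (11.4%). Chance marks about 1 in 20 (5%), or about 14 here. Of the 31, 18 were in day-14 saline lungs, 10 of them in library 80, and no cause was tested.

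Among the day-14 bleomycin lungs, library 86 had the highest mean of the blood and erythroid list, 8.95 log2 CPM, and the lowest of the transitional alveolar epithelium list, 6.47. Library 89 had the highest mean of the plasma cell list, 5.34, and the highest Car4, 7.47. Library 87 had the lowest mean of the mitochondrion-encoded list, 9.95, and the highest Cd79a, 4.76. Library 88 had the highest Cthrc1, 4.94.

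Among the day-14 saline lungs, library 80 was lowest in the smooth muscle list (5.55), the ciliated cell list (4.49), the goblet and airway defence list (3.32), the cardiac muscle list (3.32) and the skeletal muscle list (-1.01). It was also lowest in Cldn4 (1.52), Foxj1 (5.68), Muc5b (3.92) and Acta2 (7.20), and highest in Cthrc1 (3.16). Library 83 was highest in the interstitial matrix list (7.06), the T cell list (3.53), Col3a1 (9.58) and Tnc (5.25). Library 81 was lowest in the neutrophil list (2.90) and highest in the circadian clock list (5.77). Library 79 was highest in the oxidative phosphorylation list (6.15), and library 82 lowest in Ighg1 (-0.18).

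Among the day-56 bleomycin lungs, replicate 3 was highest in the lipofibroblast list (7.66) and lowest in the dendritic cell list (3.12) and the circadian clock list (5.32). Replicate 6 was lowest in the alveolar type 2 list (10.1) and in Sftpc (13.56). Replicate 1 was lowest in the mitochondrion-encoded list (10.65).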

How the results depend on the processing

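When each of the 29 lungs was left out in turn, the interaction of all but 3 of the named called genes kept its sign, and 72.7% of them kept their call in every such fit. Over those and the 8 other settings 45.3% kept it everywhere: 63 calls were lost with the earlier run alone and 32 with the later. The 3 were blood and neutrophil genes, positive only without library 86 (day-14 bleomycin replicate 3): Hba-a1 ran from -3.99 to 0.26, Ngp from -4.03 to 0.86 and Hbb-bt from -4.68 to 0.079. Without libraries 86 and 89 together they were 0.73, 1.67 and 0.47, and Camp was 0.06. Over the fits that left out 1 lung, higher calls ran from 1155 to 2722 and lower calls from 1990 to 3341, in each case lowest without library 89 and highest without library 86. Eased genes ran from 2923 to 5673, with the same lungs at the ends. Persisted genes ran from 864 (without day-56 bleomycin replicate 2) to 1911 (without replicate 6), late genes from 100 (without day-56 bleomycin replicate 5) to 201, and genes that grew from 0 to 3. The old minus young comparison gave 0 to 1 calls. Fewer lungs were fitted in each of these.

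With limma and voom 2548 persisted, 2 grew, 300 were late and 9 were called in the old minus young comparison. DESeq2 called 3 there. The 4 groups alone, with the spread estimated from them, gave 1525 higher and 2716 lower calls, 4013 eased genes and 1 gene that grew. With day-56 lungs of the earlier number run alone there were 592 higher and 970 lower calls, 1445 eased and 63 late genes. With those of the later run alone there were 1240 higher calls, 1.4e+02 (rounded) persisted and 20 late genes. The share of calls that were higher was 41.1%, and 44.7% with RLE scaling, 45.5% with DESeq2 and 36% with the 4 groups alone. For the other settings the cause was not tested. What depth limits was not tested by thinning reads. No paired analysis was possible because replicates were numbered in accession order and no label ties a lung of one group to a lung of another.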
